A study of Mus musculus with 20 samples.

Results

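The 41 genes of the macroautophagy machinery were followed through starvation of breast tumor cells with and without cathepsin D. They were taken as a list of names matched to Ensembl identifiers, and make up 41 of the 45706 identifiers in the count files. All 41 passed the filter on low counts that 15178 genes passed in the cells, so every member is counted below. Cathepsin D, encoded by Ctsd, is an aspartic protease of the lysosome. The cells came from mammary tumors of mice that express the polyoma middle T oncogene (PyMT) under the MMTV promoter, on a C57BL/6 N background. Ctsd+/+ cells, labelled wild type, descended from 1 mouse. Ctsd-/- cells descended from 1 MMTV-cre;Ctsd-/- mouse, in which cre recombinase, also driven by the MMTV promoter, removes a floxed exon of Ctsd from mammary epithelium. Both lines immortalized spontaneously. They were kept in DMEM/F12 with 1% fetal calf serum (FCS), a mild starvation, for 10 days (1% FCS) or for 12 weeks (1% FCS LT, long-term). Each of the 4 groups of genotype and culture time had 3 samples, 12 in all. With 1 line per genotype, the genotype and the line cannot be told apart, and p-values measure the spread between cultures of a line. Tumors of 18-week-old mice, 4 control (CTSD-competent) and 4 MMTV-cre;Ctsd-/-, serve as a reference only.

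Macroautophagy encloses cytoplasm in a double membrane and delivers it to lysosomes, where cathepsins and other hydrolases break it down. A serine/threonine kinase complex built on ULK1 starts the process when nutrients are short and mTORC1 no longer restrains it. A class III PI3-kinase complex then marks the site with phosphatidylinositol 3-phosphate, ATG9 vesicles and ATG2 feed lipid into the growing phagophore, and WIPI proteins read the lipid mark. A conjugation system related to that of ubiquitin attaches ATG8 proteins (the LC3 and GABARAP families) to the membrane, ATG4 proteases prime and release them, and cargo receptors such as p62 tether their load to them. SNARE proteins and tethers finally fuse the closed autophagosome with the lysosome. Much of the regulation acts on proteins, which RNA counts do not measure.

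RNA was sequenced in bulk, and counts per gene were scaled to the library size as CPM, with TMM factors. Between 33622831 and 40239762 reads per cell sample fell on genes, and a member gene held at least 85 of them (Atg10) and at most 36559 (Sqstm1) in a sample. Ctsd itself stood at 1267 to 4199 CPM in 1% FCS Ctsd+/+ cultures and 131 to 192 in 1% FCS Ctsd-/-, then at 1627 to 1895 and 114 to 151 in the LT groups, so the labels match the targeted gene. Reads from exons outside the deleted part can remain. The 1% FCS Ctsd+/+ cultures stood apart from the other 3 groups in epithelial markers. The summed level of 8 mammary epithelial genes was 999.8 to 2105 CPM there, against 9591 to 13867 in 1% FCS Ctsd-/-, 6055 to 7083 in LT Ctsd+/+ and 7421 to 9103 in LT Ctsd-/-. Epcam, an epithelial adhesion molecule, stood at 128 to 171 CPM in them and between 648 and 858 elsewhere. The summed level of 8 fibroblast genes was 1178 to 3309.6 CPM, against 5.04 to 11.9, 3.05 to 8.37 and 9.51 to 99.8 in the same order. That sum was carried by Col1a1, Pdgfrb and Col3a1, while Lum and Thy1 never exceeded 1 read. Markers of leukocytes summed to at most 59.3 CPM, nearly all of it Csf1r in LT Ctsd+/+ cells, and adipocyte markers had no more than 2 reads each. Of the 8 epithelial genes 7 were higher and 1 was lower in Ctsd-/- cells in 1% FCS, and 5 of 5 tested fibroblast genes were lower. Over time in Ctsd+/+ cells 6 of the 8 epithelial genes rose and 0 fell, and 4 of 5 fibroblast genes fell and 0 rose. In the change of the genotype difference between the times, 6 epithelial genes moved downward and 3 fibroblast genes upward, with 0 the other way. The part of these markers in the results of these comparisons was not tested. At LT, 1 epithelial gene was higher and 2 were lower, and 2 of 5 fibroblast genes were higher. In bulk RNA, fewer cells of a type and less RNA per cell cannot be told apart.

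Per length of transcript the members spanned a wide range in the cells. Sqstm1, the gene of the cargo receptor p62, had the highest level, 351 CPM per kb as the mean of the 4 groups, followed by Gabarap at 140.0, Wipi2 at 107 and Vamp8 at 93.0. Atg10, which encodes an E2-like enzyme, was lowest at 2.12 CPM per kb, below the proteases Atg4c at 2.87 and Atg4d at 3.06. For the median member the highest group mean was 1.41 times the lowest, and in 37 of 41 it was less than 2 times. The 4 with a larger ratio were Tecpr1 at 3.85, Epg5 at 2.44, Gabarapl2 at 2.05 and Atg9a at 2.04.

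**Figure D1:**
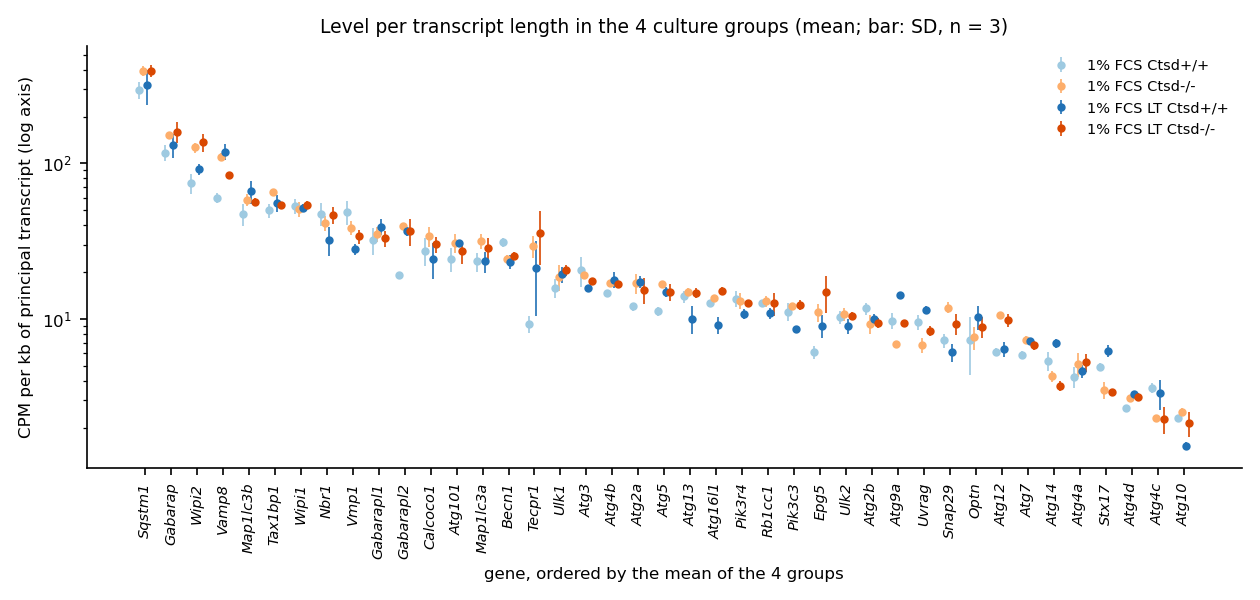
Mean level of each of the 41 genes in the 4 culture groups, in CPM per kb of the principal transcript on a log axis, with the SD of 3 cultures as bars and genes ordered by the mean of the groups. Sqstm1 leads at 351 and Atg10 closes at 2.12, and the light blue points of 1% FCS Ctsd+/+ lie below the others for Gabarapl2, Tecpr1 and Epg5.

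Genotype was compared within each culture time, and culture time within each genotype. A gene was called when edgeR's quasi-likelihood test across all 15178 genes gave a Benjamini-Hochberg adjusted p under 0.05. In 1% FCS, 18 of the 41 members were called, 12 higher and 6 lower in Ctsd-/- cells, against 48.5% of all genes tested (23.5% higher, 25.1% lower). In 1% FCS LT the count was 14, 8 higher and 6 lower, against 39.6% of all genes (20.5% higher, 19.1% lower). From 10 days to 12 weeks, 22 members were called in Ctsd+/+ cells, 13 rising and 9 falling, against 46.4% of all genes (23.0% and 23.4%). In Ctsd-/- cells only Atg9a was called among the members, rising, against 2.38% of all genes (1.57% rising, 0.810% falling). The genotype difference itself changed between the culture times for 11 members, 4 upward and 7 downward, against 30.3% of all genes (16.1% and 14.1%). Counted in either direction, the member shares, 43.9%, 34.1%, 53.7%, 2.44% and 26.8%, lay near the backgrounds for either direction. By direction some were less near, such as 6 of 41 lower in 1% FCS, against 25.1%, and 13 of 41 rising in Ctsd+/+ cells, against 23.0%. These departures were not tested. Cultures in 1% FCS Ctsd+/+ enter the 1% FCS genotype comparison, that of time in Ctsd+/+ cells and the change between the times, so their values are not independent of each other. Left out 1 at a time, single cultures moved the counts over time and between the times by more than 1.5 times. In Ctsd+/+ cells, 6 members rose without the third LT Ctsd+/+ culture and 8 without the third 1% FCS Ctsd+/+ culture, and 3 or 4 fell without the first or second LT or the first 1% FCS Ctsd+/+ culture. The upward changes of the genotype difference numbered 1 or 2 without the first or the second Ctsd+/+ or the second or the third Ctsd-/- culture of either time. The downward ones numbered 3 or 4 without the first Ctsd+/+ or the first or the third Ctsd-/- culture in 1% FCS, or the second or the third Ctsd+/+ or the first or the second Ctsd-/- culture at LT. In the same fits, of 15487 to 15608 genes, 3096 and 3394 rose and 3049 to 3301 fell over time in Ctsd+/+ cells. For 1996 to 2364 genes the genotype difference changed upward, and for 1600 to 2024 downward. With every culture kept these numbers of all genes were 3494, 3547, 2446 and 2147.

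Most differences in the machinery were small. The genes set beside the members here were all those tested, not matched to them in level. The median size of the log2 fold change, without its sign, was 0.33 over the members and 0.50 over all genes for genotype in 1% FCS, 0.27 and 0.42 for genotype at LT, 0.32 and 0.47 for culture time in Ctsd+/+, and 0.12 and 0.21 for culture time in Ctsd-/-. With the sign kept, the members' median was 0.21 for genotype in 1% FCS and 0.12 at LT, where the medians of all genes were 0.00025 and 0.014. In 1% FCS, 29 of 41 members had a positive estimate, and at LT 23 of 41. The cultures of the genotypes did not overlap for 24 members in the first comparison, against 55.2% of all genes, and for 18 in the second, against 54.2%. Only 3 members passed the study's added limit of a log2 fold change beyond 1 in any comparison, Gabarapl2, Vamp8 and Tecpr1, of which Gabarapl2 and Tecpr1 did so for genotype in 1% FCS, where 25.0% of all genes did. At LT no member did, against 19.4%. Tecpr1 did over time in Ctsd+/+ cells, against 23.4%, no member in Ctsd-/- cells, against 1.48%, and Gabarapl2 and Vamp8 in the change between the times, against 19.1%. At the other end, 11 members were called in none of the 5 comparisons: Ulk1, Ulk2, Rb1cc1, Atg101, Wipi1, Atg4a, Gabarap, Gabarapl1, Sqstm1, Optn and Calcoco1.

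**Figure D2:**
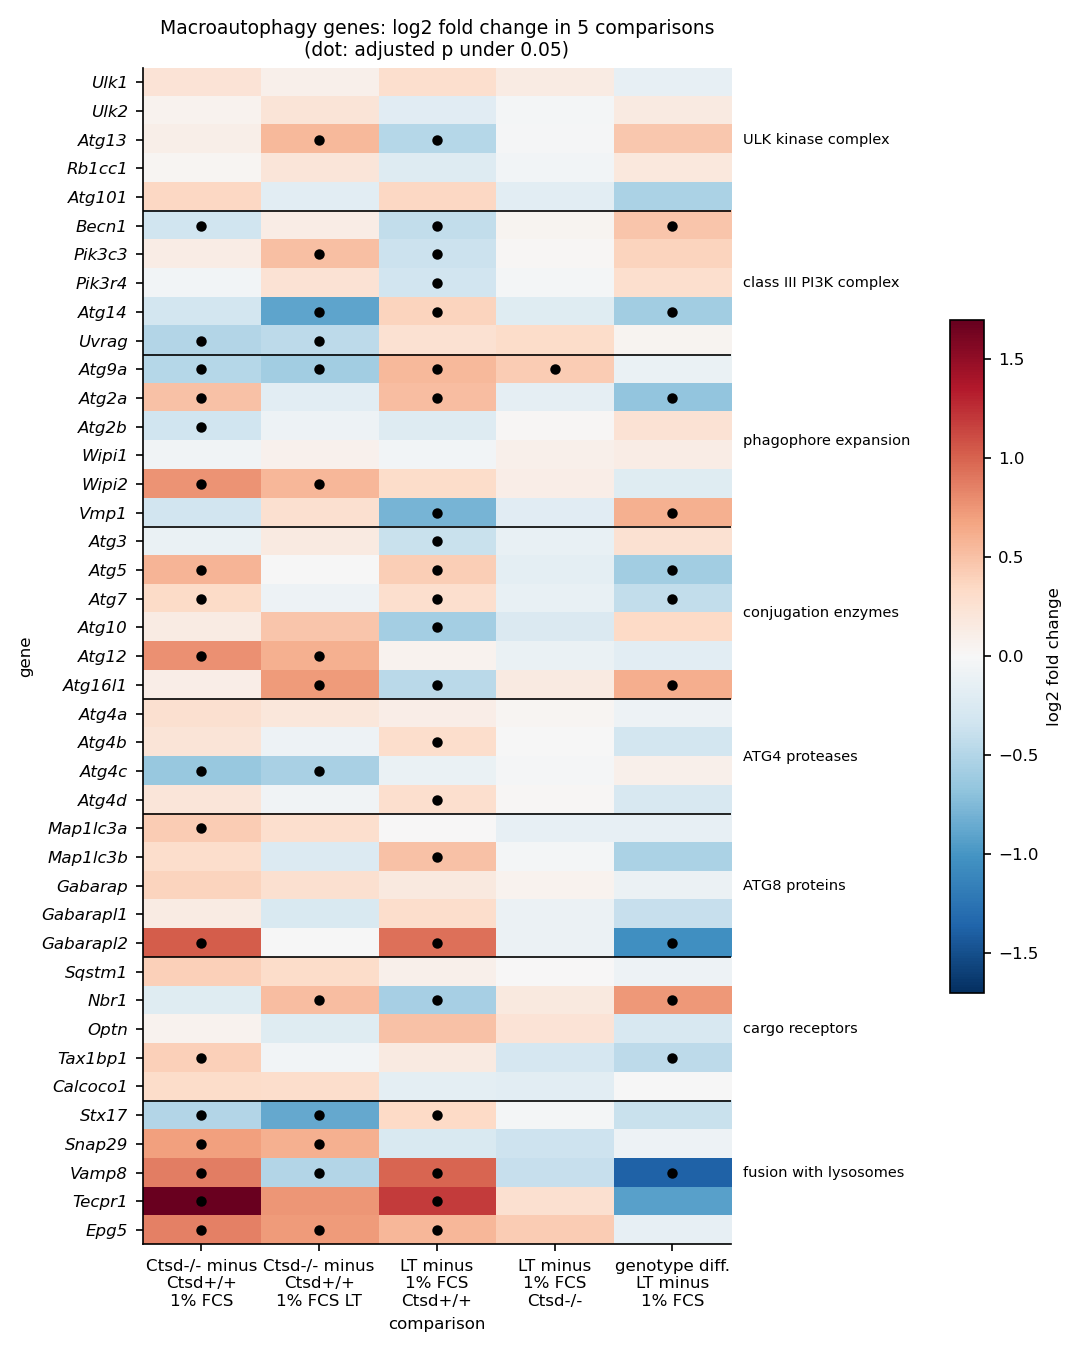
Log2 fold change of the 41 genes (rows, by role in the pathway) in 5 comparisons (columns), red for higher and blue for lower in the first-named group, with a dot where the adjusted p was under 0.05. Dots are frequent in the genotype columns and in Ctsd+/+ cells over time, and the column of Ctsd-/- cells over time holds 1 dot, at Atg9a.

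Gabarapl2 encodes GATE-16, an ATG8 protein of the GABARAP family that acts late in autophagosome formation (ENSMUSG00000031950, chr8:111940703-111953612, plus strand, GRCm38). Gabarapl2 was read at 32.4, 32.1 and 32.0 CPM in 1% FCS Ctsd+/+ cultures, 64.0, 70.3 and 63.5 in 1% FCS Ctsd-/-, 56.9, 64.7 and 63.0 in 1% FCS LT Ctsd+/+ and 49.8, 60.0 and 74.5 in 1% FCS LT Ctsd-/-. The 1% FCS Ctsd+/+ cultures lay together below all the others, and the other 3 groups overlapped. Gabarapl2 was thus higher in Ctsd-/- cells in 1% FCS (log2 fold change 1.04, SE 0.13, adjusted p = 5.67e-05), whereas the LT estimate was -0.0025 (95% CI -0.28 to 0.28). It rose over time in Ctsd+/+ cells (0.94, SE 0.13, adjusted p = 0.000134), and in Ctsd-/- cells the estimate was -0.10 (95% CI -0.38 to 0.18). The genotype difference changed by -1.04 between the culture times (SE 0.18, adjusted p = 0.00136).

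Vamp8, an R-SNARE of late endosomes and lysosomes that pairs with STX17 and SNAP29 (ENSMUSG00000050732, chr6:72385223-72390703, minus strand), was the member with opposite genotype differences at the 2 culture times. Vamp8 was read at 49.8, 52.4 and 45.5 CPM in 1% FCS Ctsd+/+ cultures, 88.1, 95.6 and 85.9 in 1% FCS Ctsd-/-, 87.9, 110.1 and 94.1 in 1% FCS LT Ctsd+/+ and 65.0, 69.2 and 71.8 in 1% FCS LT Ctsd-/-. In 1% FCS every Ctsd-/- culture was above every Ctsd+/+ culture, and at LT every one was below. The estimates were 0.87 (SE 0.10, adjusted p = 3.77e-05) and -0.50 (SE 0.10, adjusted p = 0.00224). Their difference was -1.37 (SE 0.15, adjusted p = 4.35e-05), and 5.11% of all genes were called in opposite directions in this way. In Ctsd+/+ cells Vamp8 rose over time (0.98, SE 0.10, adjusted p = 1.71e-05). The Ctsd-/- cultures were lower at LT than in 1% FCS without overlap, with an estimate of -0.39 that missed the threshold (adjusted p = 0.0734).

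Tecpr1, a tether that binds the ATG12-ATG5 conjugate and phosphoinositides on autophagosomes and lysosomes (ENSMUSG00000066621, chr5:144194442-144223615, minus strand), had the widest genotype difference of the 41 in 1% FCS. Tecpr1 was read at 52.8, 48.2 and 40.9 CPM in 1% FCS Ctsd+/+ cultures, 178, 143 and 131 in 1% FCS Ctsd-/-, 68.1, 85.6 and 169.7 in 1% FCS LT Ctsd+/+ and 129, 157 and 260.2 in 1% FCS LT Ctsd-/-. Groups in 1% FCS were separate, whereas at LT the third Ctsd+/+ culture, at 169.7, lay among the Ctsd-/- values. The difference was 1.67 in 1% FCS (SE 0.33, adjusted p = 0.00139) and 0.76 at LT (SE 0.32, adjusted p = 0.0833). With single cultures left out the LT value ran from 0.41 (adjusted p = 0.343), without the third LT Ctsd-/- culture, to 1.24 (adjusted p = 0.00495), without the third LT Ctsd+/+ culture. It was 0.52 (adjusted p = 0.252) without the first LT Ctsd+/+ culture. Tecpr1 rose over time in Ctsd+/+ cells (1.19, SE 0.33, adjusted p = 0.0106), and without the third LT Ctsd+/+ culture the rise was 0.70 and missed the threshold (adjusted p = 0.0501). In both genotypes the third LT culture was the highest for Tecpr1, and these 2 cultures carry a number in the sample labels that no other sample has. Among the 8 samples that share 1 such number, 2 per group, the genotype difference of Tecpr1 at LT was 0.90 (adjusted p = 0.0031) and its rise in Ctsd+/+ cells 0.79 (adjusted p = 0.00491).

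**Figure D3:**
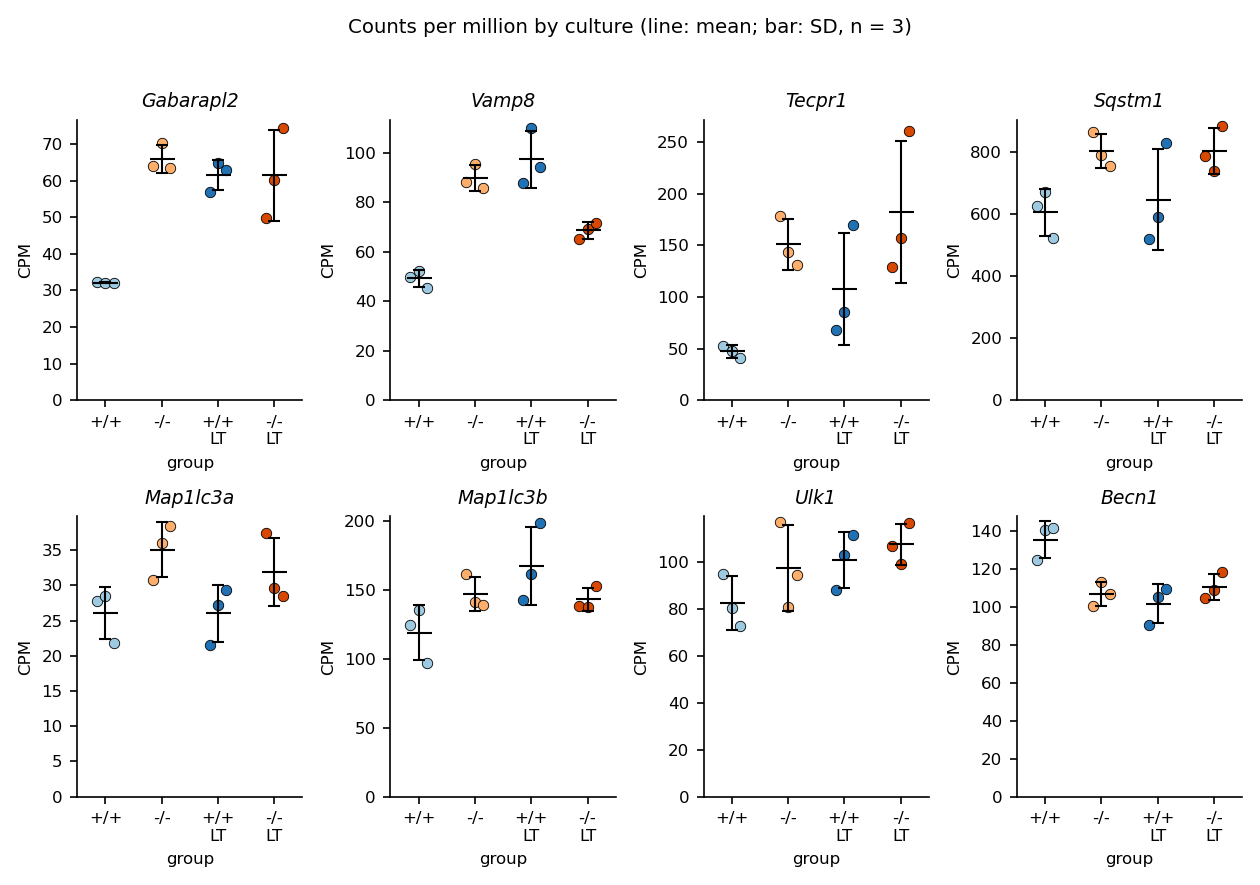
CPM of 8 genes in each culture of the 4 groups (points), with the mean as a line and the SD of 3 cultures as a bar, on axes that start at 0. Gabarapl2 is low in 1% FCS Ctsd+/+ cultures alone (32.0 to 32.4), Vamp8 changes its order between the culture times, and the groups of Sqstm1 and Ulk1 overlap at LT.

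The promoters of these 3 genes are shown because their transcripts were the ones beyond the fold limit. RefSeq start sites on GRCm38.p6 were available for 34 of the 41 members. The windows below hold the 250 bases before each start, 5′ to 3′ on the gene's strand. They have no capitals because none holds CACGTG, the E-box core bound by TFEB and other basic helix-loop-helix factors, which was searched on both strands.
Gabarapl2, chr8:111940453-111940702, plus strand: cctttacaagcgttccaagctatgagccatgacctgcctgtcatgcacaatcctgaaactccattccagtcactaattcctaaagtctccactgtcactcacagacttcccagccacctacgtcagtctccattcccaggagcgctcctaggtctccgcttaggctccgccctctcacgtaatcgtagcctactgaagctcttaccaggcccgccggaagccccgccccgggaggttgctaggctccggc
Vamp8, chr6:72390668-72390917, minus strand: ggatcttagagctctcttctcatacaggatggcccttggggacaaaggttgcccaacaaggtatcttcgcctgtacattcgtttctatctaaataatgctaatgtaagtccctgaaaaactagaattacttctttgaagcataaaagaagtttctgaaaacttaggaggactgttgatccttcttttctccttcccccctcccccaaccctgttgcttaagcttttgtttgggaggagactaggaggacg
Tecpr1, chr5:144223616-144223865, minus strand: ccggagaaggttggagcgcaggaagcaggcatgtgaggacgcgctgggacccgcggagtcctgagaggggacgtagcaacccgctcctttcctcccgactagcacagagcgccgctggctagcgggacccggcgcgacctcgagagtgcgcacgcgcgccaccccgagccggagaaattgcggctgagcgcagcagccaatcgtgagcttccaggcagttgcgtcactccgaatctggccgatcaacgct
Guanine and cytosine made up 57.2% of the Gabarapl2 window, 43.6% for Vamp8 and 66.8% for Tecpr1. Absence of these letters says only that they are not in these windows.

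The ULK kinase complex receives the nutrient signal. None of its 5 genes was called for genotype in 1% FCS, where 48.5% of all genes were, and 1 was at LT, where 39.6% were. With so few genes this is no test of the complex. Ulk1 was read at 94.9, 80.2 and 72.5 CPM in 1% FCS Ctsd+/+ cultures, 117, 80.6 and 94.2 in 1% FCS Ctsd-/-, 88.1, 103 and 111 in 1% FCS LT Ctsd+/+ and 107, 99.0 and 116 in 1% FCS LT Ctsd-/-. The genotypes of Ulk1, the catalytic kinase, overlapped at both times. Its estimate for genotype was 0.24 in 1% FCS (95% CI -0.089 to 0.57) and 0.092 at LT (95% CI -0.23 to 0.42). Atg13, the regulatory subunit that links the kinase to its scaffold, was the exception at LT. It read 30.2, 32.5 and 43.7 CPM in Ctsd+/+ and 50.8, 48.9 and 56.6 in Ctsd-/- cultures, without overlap (log2 fold change 0.55, SE 0.14, adjusted p = 0.00697). It had fallen in Ctsd+/+ cells from 45.5 to 54.2 in 1% FCS (-0.48, SE 0.14, adjusted p = 0.0128). The call was lost without the first or the second 1% FCS LT Ctsd+/+ culture (adjusted p = 0.0546 and 0.0552). The scaffold Rb1cc1 (FIP200), the paralog kinase Ulk2 and the stabilizing subunit Atg101 lay between -0.19 and 0.35 for genotype, and none was called.

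Within the class III PI3-kinase complex the genes went different ways. Becn1 encodes beclin 1, the scaffold subunit. Becn1 was read at 124, 140.3 and 141 CPM in 1% FCS Ctsd+/+ cultures, 100.2, 113 and 107 in 1% FCS Ctsd-/-, 90.3, 105 and 109.6 in 1% FCS LT Ctsd+/+ and 105, 109 and 118 in 1% FCS LT Ctsd-/-. Here the 1% FCS Ctsd+/+ cultures were the high ones, above all others. Becn1 was lower in Ctsd-/- cells in 1% FCS (log2 fold change -0.34, SE 0.10, adjusted p = 0.0139). The call was lost without the first 1% FCS Ctsd-/- culture (adjusted p = 0.0518). At LT the estimate was 0.12 (95% CI -0.10 to 0.34). Becn1 fell over time in Ctsd+/+ cells (-0.41, SE 0.10, adjusted p = 0.00539). Its exons overlap those of Cntd1 on the opposite strand, which counting by strand keeps apart in the cells.

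ATG14 and UVRAG are alternative partners of beclin 1, for autophagosome formation and for endosomal traffic and maturation. Atg14 was read at 21.2, 21.9 and 16.7 CPM in 1% FCS Ctsd+/+ cultures, 17.6, 15.3 and 15.3 in 1% FCS Ctsd-/-, 24.0, 27.5 and 26.2 in 1% FCS LT Ctsd+/+ and 13.2, 13.4 and 15.1 in 1% FCS LT Ctsd-/-. The LT genotype difference was the largest decrease of the 41 there (log2 fold change -0.90, SE 0.13, adjusted p = 0.000229), and in 1% FCS it was -0.31 (adjusted p = 0.0672). Uvrag was lower in Ctsd-/- cells at both times, with 54.7, 49.6 and 43.4 CPM against 36.0, 38.1 and 30.7 in 1% FCS and 58.3, 56.6 and 62.4 against 42.8, 40.2 and 46.9 at LT. Its groups were separate both times (-0.49, SE 0.12, adjusted p = 0.00433 and -0.45, SE 0.12, adjusted p = 0.00917). Pik3c3, the lipid kinase VPS34 itself, was higher in Ctsd-/- cells at LT, where its values were 39.0, 38.0 and 43.7 against 28.8, 28.0 and 27.9 (log2 fold change 0.51, SE 0.11, adjusted p = 0.0031). The genotype estimates of its regulatory subunit Pik3r4 were -0.044 and 0.24, and neither was called. Becn1, Pik3c3 and Pik3r4 all fell over time in Ctsd+/+ cells while Atg14 rose (0.38, SE 0.13, adjusted p = 0.0306). The Atg14 call was lost without the third 1% FCS Ctsd+/+ or the second or the third 1% FCS LT Ctsd+/+ culture (adjusted p = 0.0676 to 0.0999). The Pik3c3 call was lost without the first or the second 1% FCS Ctsd+/+ or the second 1% FCS LT Ctsd+/+ culture (adjusted p = 0.0536 to 0.0635). The Pik3r4 call was lost without the first or the second 1% FCS Ctsd+/+ or the first or the second 1% FCS LT Ctsd+/+ culture (adjusted p = 0.0998 to 0.114). With no filter the calls of Atg14, Pik3c3 and Pik3r4 were lost as well (adjusted p = 0.100, 0.0522 and 0.0709). In the samples that share 1 label number they were also lost (adjusted p = 0.0673, 0.108 and 0.0532).

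Among the genes that expand the phagophore, Wipi2 and Atg9a differed between genotypes at both culture times, in opposite directions. WIPI2 binds phosphatidylinositol 3-phosphate and recruits ATG16L1. Wipi2 was read at 123, 167 and 147 CPM in 1% FCS Ctsd+/+ cultures, 228, 254 and 262 in 1% FCS Ctsd-/-, 164, 184 and 193 in 1% FCS LT Ctsd+/+ and 240.3, 254 and 309 in 1% FCS LT Ctsd-/-. No Ctsd-/- culture fell to the Ctsd+/+ level at the same time (0.77, SE 0.13, adjusted p = 0.000588 in 1% FCS, then 0.57, SE 0.13, adjusted p = 0.00529 at LT). ATG9A is a transmembrane lipid scramblase carried on vesicles. Atg9a was read at 43.2, 41.9 and 34.6 CPM in 1% FCS Ctsd+/+ cultures, 28.1, 29.5 and 28.0 in 1% FCS Ctsd-/-, 56.6, 59.2 and 58.9 in 1% FCS LT Ctsd+/+ and 39.9, 37.2 and 38.8 in 1% FCS LT Ctsd-/-. It was lower in Ctsd-/- cells in 1% FCS (-0.48, SE 0.10, adjusted p = 0.00163) and at LT (-0.59, SE 0.10, adjusted p = 0.00055), with separate groups. Atg9a rose over time in both genotypes, by 0.55 in Ctsd+/+ (SE 0.10, adjusted p = 0.000766) and by 0.44 in Ctsd-/- cells (SE 0.10, adjusted p = 0.0413). The latter call was lost in 14 alternatives, among them limma-voom and 10 of the 12 fits that left out 1 culture, all but those without the first or the third 1% FCS Ctsd+/+ culture. In Atg9a, 1832 exonic bases are shared with Gm29253 on the same strand, so its counts are uncertain to that extent.

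The lipid-transfer genes Atg2a and Atg2b, which are paralogs, had opposite genotype estimates in 1% FCS, 0.50 (SE 0.15, adjusted p = 0.0141) and -0.34 (SE 0.12, adjusted p = 0.0319). Atg2a read 72.1, 81.2 and 76.3 CPM in Ctsd+/+ and 124, 91.7 and 109 in Ctsd-/- cultures, and Atg2b 96.6, 84.8 and 82.6 and 80.4, 61.3 and 67.3. Neither was called at LT, with -0.18 and -0.091. The Atg2a call was lost without the first 1% FCS Ctsd-/- culture (adjusted p = 0.0556). The Atg2b call was lost without the first 1% FCS Ctsd+/+ or the second or the third 1% FCS Ctsd-/- culture (adjusted p = 0.0995 to 0.13). With no filter it was lost as well (adjusted p = 0.0654). Vmp1, an endoplasmic reticulum scramblase, fell over time in Ctsd+/+ cells from 135, 159.7 and 112 to 77.8, 72.1 and 84.6 CPM (log2 fold change -0.79, SE 0.14, adjusted p = 0.000707). Wipi1 stayed between -0.063 and 0.13 in the 5 culture comparisons and was never called.

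The conjugation enzymes included the 3 partners of the ATG12-ATG5-ATG16L1 complex, the E3-like enzyme of ATG8 lipidation, and these had 3 different patterns. Atg12, the ubiquitin-like protein, was higher in Ctsd-/- cells at both culture times. Atg12 was read at 30.4, 30.2 and 27.4 CPM in 1% FCS Ctsd+/+ cultures, 47.9, 53.0 and 50.6 in 1% FCS Ctsd-/-, 26.9, 31.4 and 33.4 in 1% FCS LT Ctsd+/+ and 41.9, 47.0 and 51.1 in 1% FCS LT Ctsd-/-. Genotype groups did not overlap (0.78, SE 0.11, adjusted p = 0.000139 in 1% FCS, then 0.61, SE 0.11, adjusted p = 0.00108 at LT). Its acceptor Atg5 was called for genotype in 1% FCS. Atg5 was read at 24.9, 25.6 and 28.4 CPM in 1% FCS Ctsd+/+ cultures, 37.5, 39.2 and 40.9 in 1% FCS Ctsd-/-, 32.3, 36.9 and 36.2 in 1% FCS LT Ctsd+/+ and 34.1, 31.2 and 39.5 in 1% FCS LT Ctsd-/-. The difference was 0.58 in 1% FCS (SE 0.11, adjusted p = 0.00122), -0.0081 at LT (95% CI -0.25 to 0.23), and it changed between the times (-0.58, SE 0.16, adjusted p = 0.0153). Atg16l1, which places the complex on the membrane, differed at LT. Atg16l1 was read at 41.2, 39.6 and 37.6 CPM in 1% FCS Ctsd+/+ cultures, 44.6, 40.6 and 43.1 in 1% FCS Ctsd-/-, 25.4, 28.3 and 32.4 in 1% FCS LT Ctsd+/+ and 45.6, 46.7 and 50.5 in 1% FCS LT Ctsd-/-. LT Ctsd+/+ cultures were the low ones, below the other 3 groups. The estimate was 0.12 in 1% FCS (95% CI -0.11 to 0.34) and 0.73 at LT (SE 0.10, adjusted p = 0.00021), with a change between the times of 0.61 (SE 0.15, adjusted p = 0.0084).

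**Figure D4:**
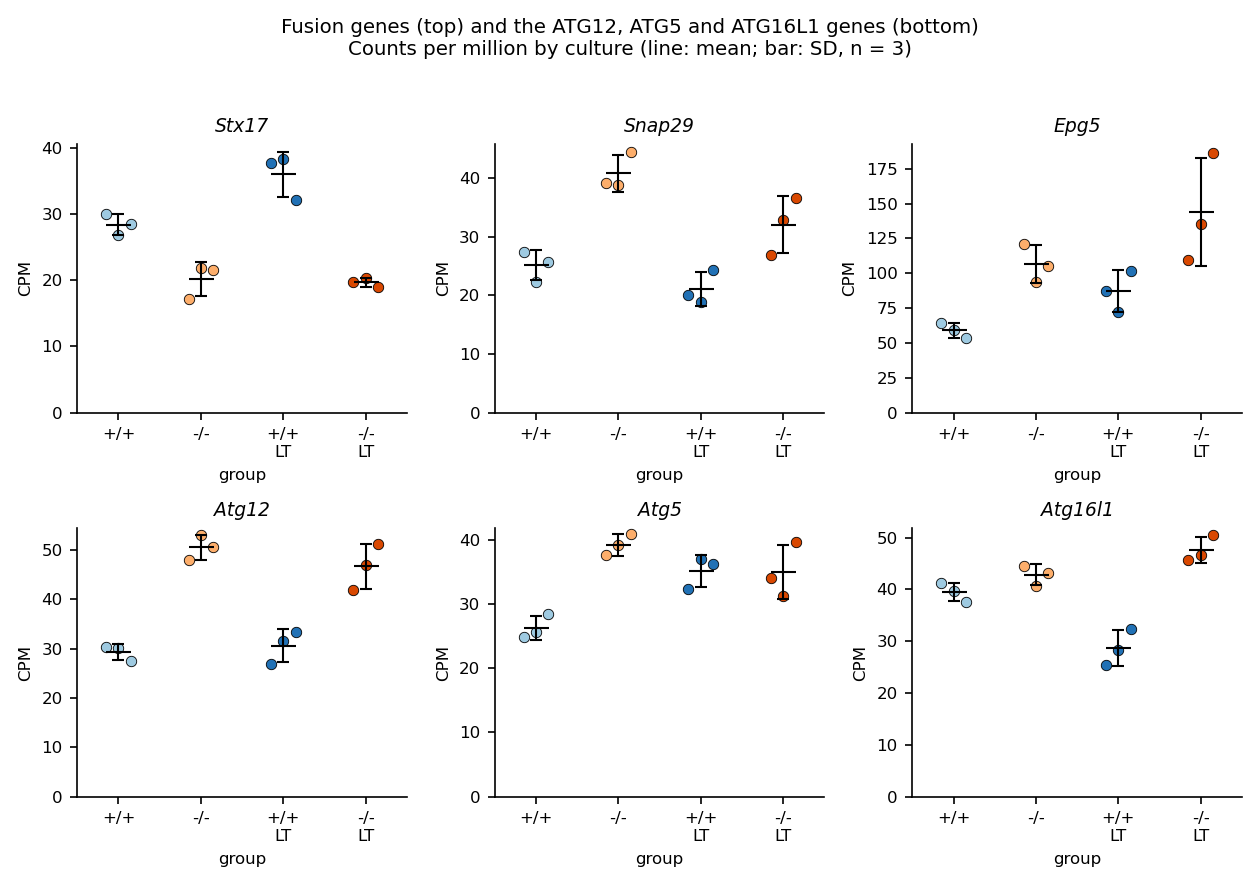
CPM in each culture of the 4 groups for Stx17, Snap29 and Epg5 (top) and for Atg12, Atg5 and Atg16l1 (bottom), with the mean as a line, the SD of 3 cultures as a bar and axes that start at 0. Stx17 is lower and Snap29, Epg5 and Atg12 are higher in Ctsd-/- cultures at both times, Atg5 is low in 1% FCS Ctsd+/+ and Atg16l1 is low in 1% FCS LT Ctsd+/+.

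Of the other 3 conjugation enzymes, Atg7, the E1-like enzyme that activates both ATG12 and ATG8 proteins, was higher in Ctsd-/- cells in 1% FCS, at 28.8, 28.6 and 25.7 CPM against 22.0, 23.5 and 20.9 (log2 fold change 0.32, SE 0.10, adjusted p = 0.018). At LT its estimate was -0.091. The call was lost without the third 1% FCS Ctsd+/+ or the second 1% FCS Ctsd-/- culture (adjusted p = 0.0716 and 0.0561). With no filter and in the samples that share 1 label number it was lost as well (adjusted p = 0.0973 and 0.103). The E2-like Atg3 and Atg10 were not called for genotype, with -0.11 and 0.14 in 1% FCS and 0.15 and 0.48 at LT. Both fell over time in Ctsd+/+ cells (-0.38, SE 0.14, adjusted p = 0.0378 and -0.58, SE 0.19, adjusted p = 0.0243). The Atg3 call was lost without the first or the second 1% FCS Ctsd+/+, the third 1% FCS Ctsd-/-, the first, the second or the third 1% FCS LT Ctsd+/+ or the second 1% FCS LT Ctsd-/- culture (adjusted p = 0.0509 to 0.161). It was also lost under limma-voom and with no filter (adjusted p = 0.0537 and 0.0573). The fall of Atg3 was -0.21 (adjusted p = 0.161) without the first 1% FCS Ctsd+/+ culture and -0.19 (adjusted p = 0.275) in the samples that share 1 label number. The Atg10 call was lost without the first 1% FCS Ctsd+/+ or the first, the second or the third 1% FCS LT Ctsd+/+ culture (adjusted p = 0.0504 to 0.0695). With no filter and in the samples that share 1 label number it was lost as well (adjusted p = 0.0992 and 0.065).

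CACGTG was found in the promoter windows of 4 of the 34 members, in 10% of their 40 windows and in 7.15% of all 32851 windows of 300 bases. Atg3, Atg5 and Atg7, of the conjugation group, held it before the start and Atg14 at the start. Atg12 and Atg16l1 of that group were among the members with no window, so the group was not fully searched. The longer TCACGTG was in 7.5% of the members' windows and 3.77% of all. The 250 bases before the start are shown for the first 3, with CACGTG in capitals.
Atg3, chr16:45158579-45158828, plus strand: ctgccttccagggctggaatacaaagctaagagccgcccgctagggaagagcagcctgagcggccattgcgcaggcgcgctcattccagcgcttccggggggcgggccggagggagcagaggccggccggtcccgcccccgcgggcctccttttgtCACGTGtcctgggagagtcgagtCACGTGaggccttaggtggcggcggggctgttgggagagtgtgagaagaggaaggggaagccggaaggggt
Atg5, chr10:44268089-44268338, plus strand: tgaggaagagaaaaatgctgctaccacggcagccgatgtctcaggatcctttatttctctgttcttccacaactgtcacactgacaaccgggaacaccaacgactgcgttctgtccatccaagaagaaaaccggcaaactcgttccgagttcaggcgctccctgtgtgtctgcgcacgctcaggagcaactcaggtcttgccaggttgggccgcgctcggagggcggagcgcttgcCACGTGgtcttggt
Atg7, chr6:114670846-114671095, plus strand: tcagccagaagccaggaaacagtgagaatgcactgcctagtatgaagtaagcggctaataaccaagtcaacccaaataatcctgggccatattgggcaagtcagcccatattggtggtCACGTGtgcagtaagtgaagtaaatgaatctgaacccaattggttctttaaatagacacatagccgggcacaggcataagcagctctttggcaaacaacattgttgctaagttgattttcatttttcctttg
The motif began 94 bases before the start of Atg3, which held it again nearer the start, 14 before that of Atg5 and 132 before that of the Atg7 window. The Atg7 window lies inside the gene, which is annotated from chr6:114643097, so its start is an internal one. Any windows of these genes without the motif were not shown. Atg5 and Atg7 were called for genotype in 1% FCS and Atg3 was not. A match is a description of the letters and no evidence of binding.

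The ATG4 proteases cut ATG8 proteins before lipidation and release them afterwards. Atg4c was lower in Ctsd-/- cells, with 11.6, 10.5 and 12.1 CPM against 7.47, 7.01 and 7.45 in 1% FCS (log2 fold change -0.64, SE 0.19, adjusted p = 0.0154). At LT, 8.03, 11.1 and 12.6 CPM stood against 6.15, 6.64 and 8.80, and the groups overlapped (-0.55, SE 0.19, adjusted p = 0.0364). The 1% FCS call was lost without the second 1% FCS Ctsd-/- culture (adjusted p = 0.0505). The LT call was lost without the third 1% FCS Ctsd-/-, the second or the third 1% FCS LT Ctsd+/+ or the first or the second 1% FCS LT Ctsd-/- culture (adjusted p = 0.053 to 0.139). With no filter and in the samples that share 1 label number it was lost as well (adjusted p = 0.0754 and 0.0567). Atg4b, the most active of the 4 proteases towards LC3, and Atg4d rose over time in Ctsd+/+ cells by 0.30 and 0.29 (adjusted p = 0.0258 and 0.0307) and were not called for genotype. The Atg4b call was lost without the third 1% FCS Ctsd+/+ or the second or the third 1% FCS LT Ctsd+/+ culture (adjusted p = 0.0595 to 0.112). The Atg4d call was lost without the first or the second 1% FCS Ctsd+/+, the third 1% FCS Ctsd-/- or the first or the third 1% FCS LT Ctsd+/+ culture (adjusted p = 0.0517 to 0.0842). With no filter the calls of Atg4b and Atg4d were lost as well (adjusted p = 0.100 and 0.199). In the samples that share 1 label number they were also lost (adjusted p = 0.0996 and 0.124). Atg4a, which has a processed copy in the genome that could take reads, was called nowhere.

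The ATG8 genes other than Gabarapl2 showed smaller differences. Map1lc3a encodes LC3A. Map1lc3a was read at 27.8, 28.5 and 21.8 CPM in 1% FCS Ctsd+/+ cultures, 30.8, 36.0 and 38.4 in 1% FCS Ctsd-/-, 21.5, 27.2 and 29.4 in 1% FCS LT Ctsd+/+ and 37.4, 29.6 and 28.5 in 1% FCS LT Ctsd-/-. In 1% FCS it was higher in Ctsd-/- cells without overlap (log2 fold change 0.43, SE 0.16, adjusted p = 0.0436). The call was lost without the first or the third 1% FCS Ctsd+/+, the second or the third 1% FCS Ctsd-/-, the second 1% FCS LT Ctsd+/+ or the second 1% FCS LT Ctsd-/- culture (adjusted p = 0.0538 to 0.168). It was lost as well with DESeq2 size factors, with no filter and with at least 10 counts in every sample (adjusted p = 0.055, 0.0556 and 0.0594). The LT estimate was 0.29 (95% CI -0.06 to 0.64). Map1lc3b encodes LC3B, the ATG8 protein most often used to count autophagosomes. Map1lc3b was read at 125, 135 and 97.3 CPM in 1% FCS Ctsd+/+ cultures, 162, 141 and 139 in 1% FCS Ctsd-/-, 143, 162 and 199 in 1% FCS LT Ctsd+/+ and 139, 138 and 153 in 1% FCS LT Ctsd-/-. Every 1% FCS Ctsd-/- culture was above every Ctsd+/+ culture, with an estimate of 0.31 that was not called (adjusted p = 0.101), and at LT the groups overlapped (-0.23, 95% CI -0.54 to 0.088). Map1lc3b rose over time in Ctsd+/+ cells (0.49, SE 0.14, adjusted p = 0.0148), and without the third LT Ctsd+/+ culture this was 0.36 (adjusted p = 0.0655). In the samples that share 1 label number the rise was 0.39 (adjusted p = 0.0738). Gabarap and Gabarapl1 were not called, with 0.38 and 0.14 in 1% FCS. All 5 ATG8 estimates were positive in 1% FCS. At LT, Map1lc3a and Gabarap were positive, Map1lc3b and Gabarapl1 negative, and the sign of Gabarapl2, near 0, turned under 10 alternatives.

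Cargo receptors bind ubiquitin or organelle marks with 1 end and ATG8 proteins with the other. Sqstm1 was read at 626, 671 and 523 CPM in 1% FCS Ctsd+/+ cultures, 864, 792 and 755 in 1% FCS Ctsd-/-, 519, 591 and 830.4 in 1% FCS LT Ctsd+/+ and 787, 739.8 and 884 in 1% FCS LT Ctsd-/-. In 1% FCS the Ctsd-/- cultures all exceeded the Ctsd+/+ ones, and at LT the third Ctsd+/+ culture of Sqstm1, at 830.4, lay within the Ctsd-/- range. The estimates were 0.40 (95% CI 0.036 to 0.77, adjusted p = 0.0665) and 0.31 (95% CI -0.056 to 0.68, adjusted p = 0.164). With single cultures left out the LT value of Sqstm1 ran from 0.18 (adjusted p = 0.458), without the first LT Ctsd+/+ culture, to 0.53 (adjusted p = 0.0163), without the third. The 1% FCS value ran from 0.29 (adjusted p = 0.199), without the third 1% FCS Ctsd+/+ culture, to 0.48 (adjusted p = 0.0603), without the second, and was past the threshold without the first or the third LT Ctsd+/+ culture (adjusted p = 0.0479 and 0.0234). Over time the estimate of Sqstm1 was 0.092 in Ctsd+/+ cells (95% CI -0.28 to 0.46), and in Ctsd-/- cells it was near 0 (95% CI -0.37 to 0.37).

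Nbr1 and Tax1bp1, which cooperate with p62 in collecting ubiquitylated cargo, split by culture time. Tax1bp1 was higher in Ctsd-/- cells in 1% FCS, at 216, 223 and 209 CPM against 169, 178 and 144 (log2 fold change 0.40, SE 0.11, adjusted p = 0.00925), and -0.046 at LT. Nbr1 was higher at LT, at 207, 205 and 253 against 124, 149 and 188 (log2 fold change 0.53, SE 0.17, adjusted p = 0.0276), and -0.21 in 1% FCS. The LT call of Nbr1 was lost without the first or the second 1% FCS LT Ctsd+/+ or the third 1% FCS LT Ctsd-/- culture (adjusted p = 0.0807 to 0.106). Between the times the difference of Nbr1 changed by 0.73 (adjusted p = 0.0373) and that of Tax1bp1 by -0.45 (adjusted p = 0.0443), calls that 9 and 12 alternatives lost. Optn, a receptor of damaged mitochondria and bacteria, and Calcoco1, a receptor of the endoplasmic reticulum and Golgi, lay between -0.21 and 0.32 for genotype without a call.

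Of the 5 genes for fusion with lysosomes, 4 were higher and 1 lower in 1% FCS, where 48.5% of all genes were called, and 2 were higher and 2 lower at LT, where 39.6% were. So few genes give no test of the group. Stx17 encodes the SNARE that closed autophagosomes acquire (ENSMUSG00000061455, chr4:48124915-48186507, plus strand). Stx17 was read at 30.0, 26.9 and 28.5 CPM in 1% FCS Ctsd+/+ cultures, 17.2, 21.9 and 21.5 in 1% FCS Ctsd-/-, 37.7, 38.4 and 32.1 in 1% FCS LT Ctsd+/+ and 19.7, 20.3 and 19.0 in 1% FCS LT Ctsd-/-. Each Ctsd-/- culture was below each Ctsd+/+ culture of the same time (-0.49, SE 0.12, adjusted p = 0.00496 in 1% FCS, then -0.87, SE 0.12, adjusted p = 0.000153 at LT). Its partner Snap29 (ENSMUSG00000022765, chr16:17405986-17430827, plus strand) went the other way. Snap29 was read at 27.4, 22.3 and 25.8 CPM in 1% FCS Ctsd+/+ cultures, 39.1, 38.8 and 44.5 in 1% FCS Ctsd-/-, 20.1, 18.9 and 24.3 in 1% FCS LT Ctsd+/+ and 26.8, 32.8 and 36.6 in 1% FCS LT Ctsd-/-. Snap29 was higher in Ctsd-/- cells at both times (0.70, SE 0.14, adjusted p = 0.00179 and 0.61, SE 0.14, adjusted p = 0.00555). Of the 3 SNARE genes of this complex, therefore, Stx17 was lower at both times, Snap29 higher at both, and Vamp8 higher and then lower.

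Epg5, a large tether that joins autophagosomes to RAB7-bearing lysosomes, was higher in Ctsd-/- cells at both times as well. Epg5 was read at 64.2, 59.2 and 53.5 CPM in 1% FCS Ctsd+/+ cultures, 121, 93.7 and 105 in 1% FCS Ctsd-/-, 87.4, 72.4 and 102 in 1% FCS LT Ctsd+/+ and 109.5, 136 and 186 in 1% FCS LT Ctsd-/-. The groups were separate (0.86, SE 0.19, adjusted p = 0.00281 in 1% FCS, then 0.72, SE 0.19, adjusted p = 0.00946 at LT), and the third LT culture was again the highest in each genotype. Epg5 rose over time in Ctsd+/+ cells (0.56, SE 0.19, adjusted p = 0.027), and in Ctsd-/- cells the estimate was 0.43 (adjusted p = 0.251). The call in Ctsd+/+ cells was lost without the second or the third 1% FCS Ctsd+/+ or the first or the third 1% FCS LT Ctsd+/+ culture (adjusted p = 0.0567 to 0.102).

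Side by side, the genotype comparisons gave the same call at both times for 8 members. Wipi2, Atg12, Snap29 and Epg5 were higher in Ctsd-/- cells at both times, as were 9.11% of all genes. Uvrag, Atg9a, Atg4c and Stx17 were lower at both times, as were 10.1%. For 11 members, of which Vamp8 alone was called at both times and Vmp1 at neither, the difference changed between the times: Gabarapl2, Vamp8, Atg5, Atg7, Atg2a, Tax1bp1 and Atg14 moved downward and Becn1, Vmp1, Atg16l1 and Nbr1 upward. Across the 41 members the LT estimates correlated with the 1% FCS estimates at r = 0.49, and across all genes at 0.50. The 2 comparisons share the cell lines and no cultures. Fitted without the 1% FCS Ctsd+/+ libraries, which stood apart in their markers, the LT comparison again gave 8 members higher and 6 lower, where 22.1% of all genes were higher and 21.5% lower. Those libraries enter the LT comparison only through the shared filter, scaling and spread. This fit therefore cannot address the 1% FCS comparison. Among the 8 samples that share 1 label number, 13 members were higher and 6 lower in 1% FCS, against 21.2% and 23.5% of all genes, and 10 were higher and 5 lower at LT, against 19.1% and 18.1%.

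**Figure D5:**
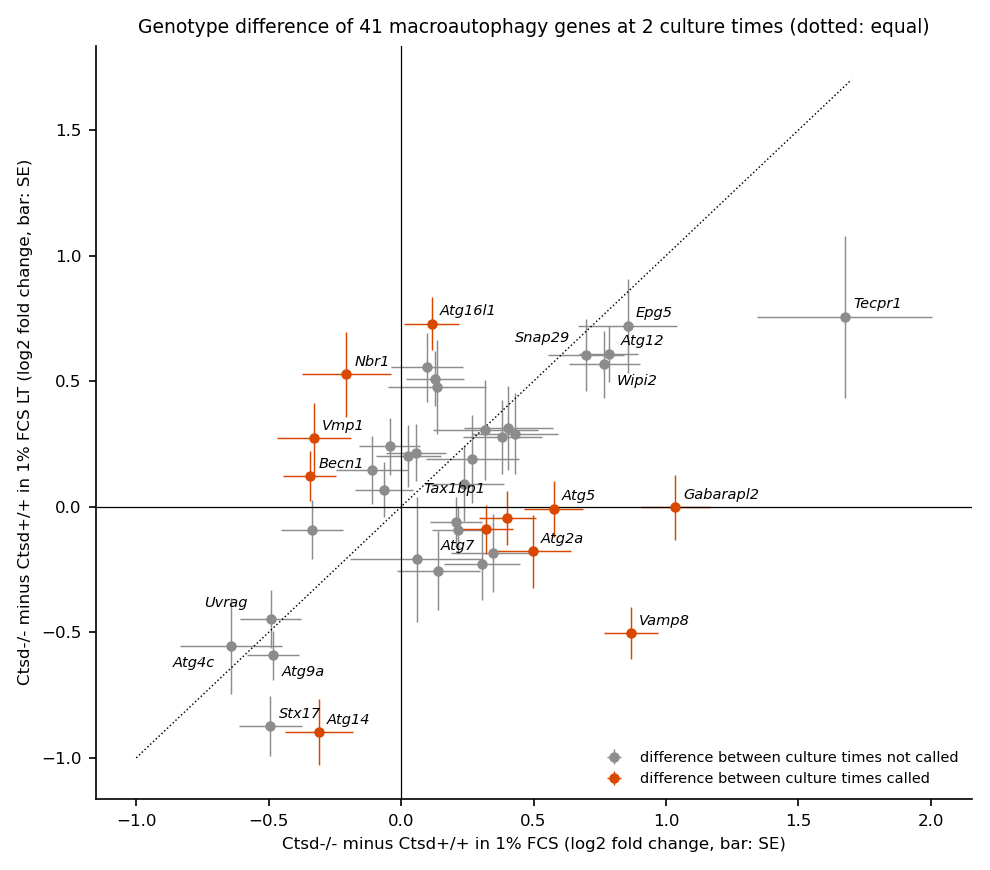
Genotype difference of each of the 41 genes in 1% FCS (x axis) and in 1% FCS LT (y axis), as log2 fold change of Ctsd-/- against Ctsd+/+ with the SE as bars. Orange marks the 11 genes whose difference changed between the times, among them Vamp8 at 0.87 and -0.50 and Gabarapl2 at 1.04 and -0.0025, and the dotted line marks equal values.

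A further list of 50 autophagy genes outside the machinery, 49 of them tested, was counted in the same way. In 1% FCS 15 were higher and 8 lower in Ctsd-/- cells, 46.9% of the list against 48.5% of all genes, and at LT 9 and 7, 32.7% against 39.6%. Over time, 16 of them rose and 11 fell in the Ctsd+/+ line, 55.1% against 46.4%, and a single gene rose in the Ctsd-/- line, 2.04% against 2.38%. The highest in 1% FCS were Atg9b, a paralog of Atg9a (2.62, SE 0.37, adjusted p = 0.000136), Rnf152, a ubiquitin ligase of the mTORC1 pathway (1.41, SE 0.30, adjusted p = 0.0025), and Retreg1, the receptor FAM134B of the endoplasmic reticulum (1.26, SE 0.18, adjusted p = 0.000158). Atg9b stood at 20.6, 26.4 and 65.8 CPM in 1% FCS Ctsd+/+ and at 245, 212 and 235 in Ctsd-/- cultures, and at LT it overlapped between genotypes. The lowest were Plekhm1, an adaptor of RAB7 and HOPS (-1.01, SE 0.21, adjusted p = 0.00197), Vps33a (-0.90, SE 0.13, adjusted p = 0.000191) and Trp53inp2, a cofactor that binds ATG8 proteins (-0.81, SE 0.13, adjusted p = 0.000451).

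At LT the highest were Dapk1, a kinase that phosphorylates beclin 1 (1.27, SE 0.25, adjusted p = 0.00164), Sh3glb1, the membrane-bending partner of UVRAG (1.11, SE 0.12, adjusted p = 3.8e-05), and Bcl2, which binds and restrains beclin 1 (1.05, SE 0.12, adjusted p = 4.07e-05). The lowest were Rab2a, a small GTPase of fusion (-1.06, SE 0.15, adjusted p = 0.000156), Vps33a (-0.93, SE 0.13, adjusted p = 0.000213) and Wdr45b, the WIPI family member WIPI3 (-0.88, SE 0.10, adjusted p = 2.72e-05). Bcl2 had been higher in Ctsd-/- cells in 1% FCS also (1.20, SE 0.12, adjusted p = 1.07e-05), at 92.9, 85.7 and 92.8 CPM against 37.8, 42.1 and 38.4. Vps33a, the subunit of the HOPS tether that holds the fusion SNAREs, was thus low in Ctsd-/- cells at both times. It read 36.0, 29.9 and 28.6 CPM against 62.8, 56.7 and 56.8 in 1% FCS and 42.9, 39.7 and 52.5 against 76.7, 95.7 and 84.1 at LT. Of the 10 fusion genes on this further list, 3 were higher and 5 lower in 1% FCS, where 48.5% of all genes were called. At LT 3 were higher and 4 lower, where 39.6% were called. The HOPS subunit Vps16 was lower in 1% FCS (-0.27, SE 0.077, adjusted p = 0.0134) and higher at LT (0.60, SE 0.077, adjusted p = 9.82e-05), and is named because it shares that tether, after its values were seen.

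Ctsd itself was read at 1860.2, 2617, 1781 and 2532 CPM in control and 797, 360.2, 1295 and 1233 in MMTV-cre;Ctsd-/- tumors (log2 fold change -1.25, SE 0.38, adjusted p = 0.463), in which only mammary epithelium is targeted. In the tumors no member was called by edgeR, where 0.00537% of the 18617 genes tested were, nor by DESeq2 or limma-voom, which called 1.42% and 0.0107% of all genes, and 1 of the 41 had an unadjusted p under 0.05. That was Atg9a, with 9.27, 7.01, 6.76 and 4.16 CPM in control and 7.82, 12.1, 10.6 and 12.5 in MMTV-cre;Ctsd-/- tumors (log2 fold change 0.66, SE 0.29, adjusted p = 0.555). Uvrag was the member whose groups did not overlap, at 14.1 to 16.0 against 16.2 to 17.6 CPM, as 4.15% of all genes did. The median over the members was 0.016, and the estimates ran from -0.80 for Gabarapl2 to 0.66 for Atg9a. Gabarapl2 stood at 78.1, 78.9, 164 and 269.6 CPM in control and 121, 77.1, 66.0 and 75.6 in MMTV-cre;Ctsd-/- tumors, with 2 control tumors above every other tumor. Sqstm1 read 246, 291, 173 and 247 and 189.8, 299, 253 and 227. The summed level of 4 adipocyte markers was 59.6 to 535 CPM in control and 423 to 3730.0 in MMTV-cre;Ctsd-/- tumors, and its part in these values was not tested. Control and MMTV-cre;Ctsd-/- tumors also carry different numbers in their labels, so that number and the genotype cannot be told apart.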

How the data were processed

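RNA of 12 cell samples and 8 tumors was sequenced in bulk on an Illumina instrument. Per the labels and the study's methods, the authors trimmed the reads, aligned them with STAR to mouse genome mm10 (GRCm38) and deposited raw read counts per Ensembl gene, with no normalization. Software versions and the annotation release are not given in the sources used here. Of the columns with and without strand, the cells were read from the opposite-strand column, which held 97.1% to 97.3% of their stranded counts, and the tumors from the column without strand, in which a gene and an overlapping antisense gene cannot be told apart. Rows that name no gene took 14.8% to 18.9% of cell reads and 24.7% to 32.7% of tumor reads, and were left out of library sizes and tests. No column of per-sample values was left without a sample (0).

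Counts were filtered with filterByExpr, scaled with TMM factors and tested by edgeR's quasi-likelihood method (edgeR 4.0.16, limma 3.58.1, DESeq2 1.42.0, R 4.3.3), two-sided, and p-values were adjusted after Benjamini and Hochberg over every gene in the fit. The 12 cell samples were fitted together, so the groups share an estimate of the spread, and the tumors apart. The fit was tested on simulated counts with 200 changed genes. Levels of genes in CPM per kb use the length of the principal transcript in GENCODE M21, where 45143 of 45706 identifiers were found. Alternatives were DESeq2 size factors, DESeq2, limma-voom, no filter, at least 10 counts in every sample, counts regardless of strand, a replicate block, the 8 samples that share 1 label number, and each sample left out in turn. A fit with no 1% FCS Ctsd+/+ libraries (9 samples) was chosen after seeing the data.

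The members, marker lists and further autophagy genes were chosen with earlier results of these data known. By rule, values in every culture were given for members called with a log2 fold change beyond 1, for Sqstm1, Map1lc3a, Map1lc3b, Ulk1 and Becn1, and the largest change of each functional group was named. Of the further autophagy genes, the 3 highest and 3 lowest called were named in each genotype comparison. Other members were given values after these had been seen. No samples differed by less than sampling noise.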

Additional observations from a re-analysis of the deposited data

Results flagged for a closer look

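For 11 of the 41 members the genotype difference at 12 weeks differed from that at 10 days by the test of the difference itself, edgeR's quasi-likelihood test with Benjamini-Hochberg adjustment over 15178 genes. As log2 values, LT minus 1% FCS, the changes were -1.37 for Vamp8 (adjusted p = 4.35e-05), -1.04 for Gabarapl2 (adjusted p = 0.00136), -0.67 for Atg2a (adjusted p = 0.0274), -0.59 for Atg14 (adjusted p = 0.0306), -0.58 for Atg5 (adjusted p = 0.0153), -0.45 for Tax1bp1 (adjusted p = 0.0443) and -0.41 for Atg7 (adjusted p = 0.0427). Upward changes were 0.73 for Nbr1 (adjusted p = 0.0373), 0.61 for Atg16l1 (adjusted p = 0.0084), 0.60 for Vmp1 (adjusted p = 0.0367) and 0.47 for Becn1 (adjusted p = 0.0275). The calls of Vamp8, Gabarapl2 and Atg16l1 held in every alternative run, and that of Atg5 in all but the fit with no filter (adjusted p = 0.0518). The others were lost in 14 alternatives for Atg7, 12 for Tax1bp1, 10 for Vmp1, 9 for Nbr1, 8 for Atg14, 7 for Atg2a and 7 for Becn1.

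Among the MMTV-cre;Ctsd-/- tumors 1 sample lay far from the other 3 for Becn1, at 66.5 CPM against 46.7, 47.4 and 47.9. It was found among 20 sets of 4 tumors, those of 10 genes (Gabarapl2, Vamp8, Tecpr1, Sqstm1, Map1lc3a, Map1lc3b, Ulk1, Becn1, Atg9a and Uvrag) in each of the 2 tumor groups, and chance flags about 1 in 20 such sets.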

How the results depend on the processing

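Over single genes, 1420 values under alternatives kept their direction and side of the threshold, 182 lost a call, 11 gained one and 12 turned in direction. Of those that turned, 10 belong to the LT genotype difference of Gabarapl2, -0.0025 as reported. It was 0.017 with no filter, 0.0087 regardless of strand, and with single cultures left out 0.0019, 0.0023, 0.0020, 0.0019, 0.036, 0.014, 0.13 and 0.019, a range from -0.16 to 0.13 over all cultures left out. Over time in Ctsd-/- cells, Gabarapl2 turned to 0.029 without the first LT Ctsd-/- culture (range -0.26 to 0.029) and Tecpr1 to -0.077 without the third (range -0.077 to 0.47).

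Over time in Ctsd+/+ cells, 8 members rose and 5 fell with no filter, against 12.4% and 13.1% of the 27376 genes then tested. Among the 8 samples sharing a label number 5 fell, against 21.9% of all genes. In Ctsd-/- cells the 1 rising member became 0 under limma-voom, no filter, the replicate block and the shared label number. The shares of all genes rising in those fits were 1.20%, 1.80%, 1.67% and 3.40%. DESeq2 gave 1 member falling, against 2.72% of all genes. With no filter, 3 members changed downward between the times, against 6.81% of all genes. The causes were not tested. Leaving out each sample in turn gave 10 to 14 members higher and 4 to 8 lower for genotype in 1% FCS, 7 to 10 and 5 to 6 at LT, 6 to 13 rising and 3 to 9 falling over time in Ctsd+/+, 0 to 1 and 0 in Ctsd-/- cells, 1 to 5 upward and 3 to 8 downward between the times, and 0 in tumors. Those cell fits tested 15487 to 15608 genes. Of all genes, 3029 to 3596 were higher and 3199 to 3892 lower in 1% FCS, and 2438 to 3322 and 2329 to 3258 at LT. Over time 2931 to 3646 rose and 3049 to 3677 fell in Ctsd+/+, and 31 to 329 and 26 to 198 in Ctsd-/- cells. Between the times 1996 to 2509 changed upward and 1600 to 2334 downward.

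The main fit did not pair samples by replicate number. Of 12 correlations of same-numbered cultures, 5 were over 0.1 (range -0.14 to 0.36). Between genotypes in 1% FCS, where the first cultures share a label number of their own, they were 0.36, 0.10 and 0.30. Other-numbered cultures there gave -0.36 to 0.19. In Ctsd-/- cells over time they were 0.19, 0.077 and 0.17, against -0.18 to 0.033. Values were 0.070, 0.0018 and 0.12 between genotypes at LT, and -0.14, -0.033 and -0.062 over time in Ctsd+/+ cells. With the replicate number as a block, 4 single-gene calls were lost (Atg9a over time in Ctsd-/-, Vmp1 and Atg7 between the times, Map1lc3a in 1% FCS). They were among 80 single-gene results followed, some of which the main fit had not called. The rising count in Ctsd-/- cells was then 0, against 1.67% of all genes, and in Ctsd+/+ 15, against 23.5%. Between the times 3 members changed upward, against 16.4%. Depth limits Atg10 most, with 85 counts at its lowest.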
